A study of Homo sapiens with 6 samples.

Results

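The 7 metallothionein genes MT1E, MT1F, MT1G, MT1H, MT1M, MT1X and MT2A were followed in 2 human colon cancer cell lines profiled on Affymetrix arrays. The members are all probe sets annotated to exactly 1 of these 7 symbols, which gave 11 probe sets of the 22215 tested. E1, with 3 arrays, is a line that its description calls metastatic and derived in vivo, and the cell line field of its labels gives HCT116 as well. HCT116, with 3 arrays, is an established colon cancer line described as poorly metastatic. The labels name no treatment, metal supplement, medium or derivation step for either line, and do not say whether the triplicate arrays came from separate cultures, so the p-values rest on array-to-array spread alone, and this may be technical.

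Metallothioneins are small, cysteine-rich cytosolic proteins that bind zinc and copper and can sequester cadmium. Their genes are transcribed from short promoters that carry copies of the metal response element, to which the zinc-sensing factor MTF1 binds when free zinc rises, and glucocorticoids and oxidative stress are further known inducers. In the intestine they buffer dietary zinc, and their levels in tumours and cultured cells depend on metal supply and on silencing of single genes of the cluster.

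In the RefSeq order the 7 genes lie on chromosome 16 as MT2A, MT1E, MT1M, MT1F, MT1G, MT1H and MT1X, and the Entrez numbers of all 11 probe sets were found in RefSeq. Promoter windows were at hand for 3 of the 7, MT2A, MT1H and MT1X. They are shown because MTF1, the factor known to bind them, was among the metal-handling genes measured below. Each runs from 250 bases before to 50 bases after the RefSeq transcript start (GRCh38.p14), is written 5′ to 3′ on the plus strand, and has every match to the 7-base core of the metal response element in capitals. MT2A is chr16:56608334-56608633, MT1H is chr16:56669564-56669863 and MT1X is chr16:56682220-56682519.
MT2A: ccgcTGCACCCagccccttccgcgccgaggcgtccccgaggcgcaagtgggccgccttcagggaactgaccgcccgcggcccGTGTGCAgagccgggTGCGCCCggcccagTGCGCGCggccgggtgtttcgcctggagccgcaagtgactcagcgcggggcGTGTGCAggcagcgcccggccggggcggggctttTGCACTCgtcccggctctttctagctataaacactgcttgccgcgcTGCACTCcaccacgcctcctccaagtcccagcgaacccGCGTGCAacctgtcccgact
MT1H: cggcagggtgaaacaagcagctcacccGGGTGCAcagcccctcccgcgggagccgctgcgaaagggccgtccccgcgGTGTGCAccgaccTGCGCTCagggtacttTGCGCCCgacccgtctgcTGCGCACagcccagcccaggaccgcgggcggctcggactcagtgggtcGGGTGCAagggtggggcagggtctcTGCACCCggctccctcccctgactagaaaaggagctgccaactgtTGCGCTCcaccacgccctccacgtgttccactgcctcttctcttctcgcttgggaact
MT1X: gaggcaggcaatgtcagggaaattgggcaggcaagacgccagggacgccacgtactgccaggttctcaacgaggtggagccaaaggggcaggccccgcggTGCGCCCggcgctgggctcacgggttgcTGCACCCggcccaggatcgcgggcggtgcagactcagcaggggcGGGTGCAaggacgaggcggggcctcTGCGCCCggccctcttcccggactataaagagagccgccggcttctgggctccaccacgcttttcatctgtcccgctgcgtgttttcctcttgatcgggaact
The cores searched were TGCACNC and TGCGCNC on both strands, where N is any base. The MT2A window held 8 matches, 6 of them TGCACNC and 2 TGCGCNC. The MT1H window also held 8, with 4 of each form, and the MT1X window held 4, with 2 of each. At least 1 match occurred in 29.6% of the 35116 promoter windows of this length, at least 4 in 0.601% and at least 8 in 0.0199%. In that count matches on opposite strands may overlap, whereas none overlapped in the 3 windows printed. The TATA sequence TATAAA stood 1 time each in the MT2A and MT1X windows, did not occur in that of MT1H, and was present on the printed strand in 7.33% of all windows. The promoter of SLC30A1, a zinc exporter known as another MTF1 target, held 2 core matches, and at least 2 occurred in 8.60% of the windows. A match is a run of letters and not a measured binding site.

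**Figure D1:**
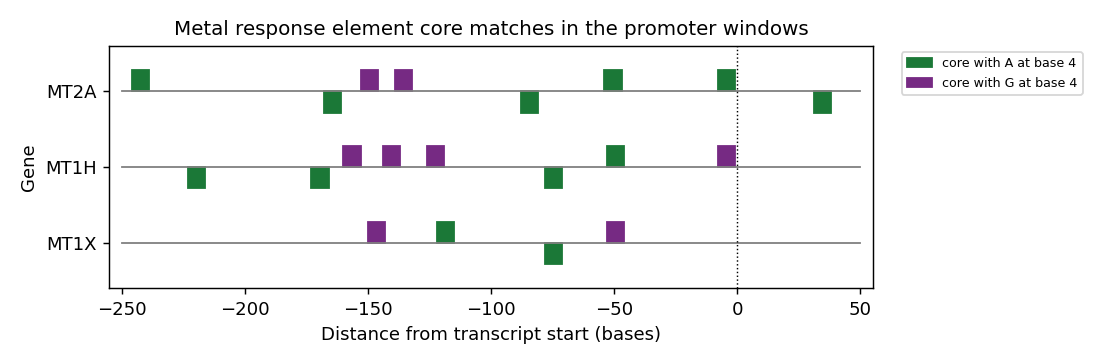
Positions of the metal response element core matches in the promoter windows of MT2A, MT1H and MT1X. The horizontal axis is the distance from the transcript start in bases, blocks above the line are matches on the same strand and blocks below it on the opposite strand, and the MT2A, MT1H and MT1X windows hold 8, 8 and 4 matches.

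The 3 E1 arrays differed from one another in RNA-quality controls. The ratio of 3' to 5' signal of the GAPDH control probe sets was 0.803 on E1 array 1, 34.1 on E1 array 2 and 71.9 on E1 array 3, against 0.774 to 0.811 on the HCT116 arrays. Median intensities of the non-control probe sets were 48.1 to 61.3 for E1 and 61.9 to 66.6 for HCT116. Of the 22215 probe sets, 171 were called between the lines at a Benjamini-Hochberg adjusted p under 0.05 in limma, 48 higher and 123 lower in E1, and the count depended on the arrays, with 6 called without E1 array 3 and 2358 without E1 array 1. Each log2 fold change is the E1 mean minus the HCT116 mean of log2(intensity + 32), and SE is its standard error in limma. The offset of 32 understates the change of dim probe sets. Summed intensities of 12 probe sets of 10 colon epithelial markers were 11704 to 14793 in E1 and 17056 to 19646 in HCT116, so the sum was lower on every E1 array. The log2 fold change was negative for 8 of these 12 probe sets, against 53.0% of all probe sets. Those above 0 included EPCAM at 0.40 and CEACAM5 at 0.48 and 0.09. EPCAM, KRT18 and KRT19 read at least 1691, 5677 and 1172 on every array, with maxima of 3428, 8466 and 3952. KRT8 read 2862, 372 and 103 on the E1 arrays, against 4693, 3169 and 4352 on the HCT116 arrays. Its log2 fold change of -2.91 (SE 1.05, adjusted p = 0.262 in limma) was -0.48 with E1 array 1 alone. The intestinal markers CDX1, CDX2 and VIL1 did not exceed 17.2, 22.5 and 18.7 on any array. Marker sums of fibroblasts were 719 to 1021 in E1 and 766 to 895 in HCT116, those of endothelium 249.5 to 324 in E1 and 246 to 287 in HCT116, and those of leukocytes 234 to 308 in E1 and 234.6 to 348 in HCT116, so all of these overlapped. No marker gene was called in limma over all probe sets. The smallest p-values were those of KRT18 at -0.40 and CDH1 at -1.18 among epithelial markers, COL1A1 at 0.88 and PDGFRA at 0.44 among fibroblast markers, VWF at 0.36 and ERG at -0.36 among endothelial markers, and ITGAM at -0.44 and PTPRC at -0.17 among leukocyte markers, all as log2 fold changes (8 of 35 marker genes had an unadjusted p under 0.05). By probe sets that was 3 of 12 epithelial, 2 of 25 fibroblast, 2 of 14 endothelial and 1 of 10 leukocyte ones, where 16.5% of all probe sets passed. The CDH1 value is that of 201130_s_at, which was -0.28 with E1 array 1 alone set against HCT116. The brighter CDH1 probe set, 201131_s_at, stood at 0.03 (adjusted p = 0.978 in limma). The part of these markers and of RNA quality in the metallothionein values was not tested, beyond the fits that leave out E1 arrays or carry the GAPDH ratio as a covariate.

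Metallothionein signal averaged lower in E1 for 10 of the 11 member probe sets, but no member passed the test. All 9 probe sets whose identifiers end in _x_at read between 500.1 and 7467 on every array, above the array medians, whereas the other 2, of MT1G and MT1M, lay below the median on every array of both lines. The ending marks probe sets whose probes can also bind other, similar transcripts, which for genes of such close sequence means that these 9 cannot be taken as separate readings of 9 transcripts. Of the 11 member probe sets, 0 were called in limma, where 0.77% of all probe sets were, and 4 had an unadjusted p under 0.05, all lower in E1, where 11.7% of all probe sets were lower at that threshold. After quantile normalization 1 member was lower at that threshold, where 7.54% of all probe sets were. With array medians subtracted it was also 1 member, where 8.26% of all probe sets were. The log2 fold change was negative for 10 of the 11, against 53.0% of all probe sets. Its median over the members was -0.45, beside -0.02 over all probe sets tested. Adjusted p-values of the members ran from 0.202 to 0.956. In 5 of the 11 the lines did not overlap, each with E1 below HCT116, against 13.0% of all probe sets. A lower signal could come from fewer expressing cells or from less RNA per cell, and these cannot be told apart in bulk RNA. The E1 arrays also had lower median intensities than the HCT116 arrays, and with array medians subtracted the members' median log2 fold change was -0.30. The part of array brightness and of RNA quality was not tested beyond such alternative fits.

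**Figure D2:**
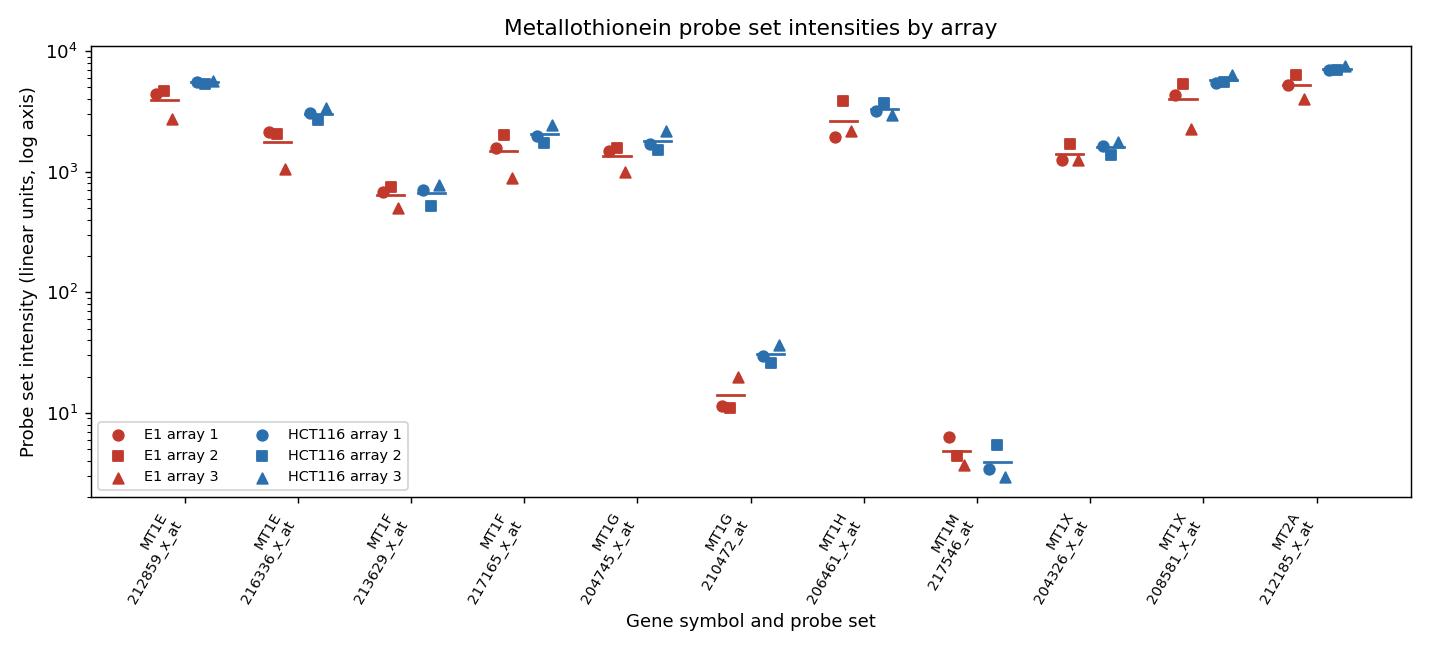
Intensity of each metallothionein probe set on each array, on a log axis, with 3 E1 arrays left of 3 HCT116 arrays, a marker shape for each array number and a bar at the mean of a line. The 9 _x_at probe sets lie between 500.1 and 7467, while 210472_at of MT1G and 217546_at of MT1M lie far lower.

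MT2A encodes the most widely expressed human metallothionein. Its probe set 212185_x_at read 5278, 6350 and 4018 on E1 arrays 1, 2 and 3, against 7014, 6930 and 7467 on the HCT116 arrays. All E1 arrays lay below all HCT116 arrays, and E1 array 3 was the lowest. The means were 5215 ± 1167 in E1 and 7137 ± 289 in HCT116 (SD, n = 3 each), a ratio of 0.731. The log2 fold change was -0.47 (SE 0.18, 95% confidence interval -0.92 to -0.03), with limma p-values of 0.0413 unadjusted and 0.284 adjusted. With E1 array 1 alone, whose GAPDH ratio was like that of HCT116, the value was -0.43. Values with E1 array 1 alone set a single array against 3, with no spread of their own for E1, and are given as a description.

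MT1E is the next member after MT2A on the chromosome and encodes a metallothionein of the MT1 group. Its brighter probe set, 212859_x_at, read 4377, 4642 and 2736 on the E1 arrays, against 5579, 5347 and 5706 on the HCT116 arrays. The other, 216336_x_at, read 2148, 2069 and 1046 on the E1 arrays, against 3041, 2670 and 3369 on the HCT116 arrays. Neither probe set overlapped between the lines, and on both E1 array 3 was far below the other E1 arrays. The log2 fold changes were -0.53 (SE 0.22, adjusted p = 0.301 in limma) for 212859_x_at and -0.84 (SE 0.29, adjusted p = 0.251) for 216336_x_at, the most negative value among the members. With E1 array 1 alone they were -0.34 and -0.48.

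MT1X lies at the far end of the cluster. Its probe set 208581_x_at read 4346, 5336 and 2260 on the E1 arrays, against 5487, 5587 and 6313 on the HCT116 arrays, which do not overlap. Its probe set 204326_x_at read 1252, 1688 and 1261 on the E1 arrays, against 1623, 1380 and 1778 on the HCT116 arrays. Here E1 array 2 lay within the HCT116 range, so the lines overlapped. The log2 fold changes were -0.62 (SE 0.32, adjusted p = 0.396 in limma) and -0.19 (SE 0.17, adjusted p = 0.667).

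MT1F, whose product binds metals like the other MT1 proteins, was read by a pair of _x_at probe sets that gave unlike values. The probe set 217165_x_at read 1587, 2027 and 879.7 on the E1 arrays, against 1965, 1747 and 2458 on the HCT116 arrays. The probe set 213629_x_at read 678 and 754 on E1 arrays 1 and 2 and 500.1 on E1 array 3, against 707, 521 and 771 on the HCT116 arrays. Both overlapped between the lines. The log2 fold changes were -0.51 (SE 0.32, adjusted p = 0.489 in limma) and -0.05 (SE 0.21, adjusted p = 0.956). The sign of the second was not settled: it was 0.04 after quantile normalization, 0.10 with array medians subtracted and 0.12 without E1 array 3.

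MT1H was read by 1 probe set, 206461_x_at, at 1933, 3872 and 2159 on the E1 arrays, against 3183, 3746 and 2952 on the HCT116 arrays. E1 array 2 was the highest of the 6 arrays and E1 array 1 the lowest, an order that no other _x_at member showed. The log2 fold change was -0.37 (SE 0.28, adjusted p = 0.583 in limma). It was -0.75 with E1 array 1 alone.

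MT1G, a gene often found silenced by promoter methylation in other tumours, had 1 probe set of each kind. The _x_at probe set 204745_x_at read 1479, 1562 and 989.7 on the E1 arrays, against 1686, 1523 and 2169 on the HCT116 arrays, with overlap, and stood at -0.42 (SE 0.23, adjusted p = 0.420 in limma). The probe set 210472_at, whose name carries no mark of cross-hybridization, read 11.4, 10.9 and 20.0 on the E1 arrays, against 30.0, 25.9 and 36.4 on the HCT116 arrays. Every E1 array lay below every HCT116 array, but all 6 values were below the array median. Its log2 fold change of -0.45 (SE 0.14) had the smallest unadjusted p of the members, 0.0155, (0.202 adjusted). With an offset of 1 in place of 32 the value was -1.11 and was still not called. Detection calls were not used here, and since a probe set's signal depends on its own probes as well as on the transcript, the levels of the MT1G probe sets are not ranked against each other.

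MT1M was read by 217546_at alone, also without the mark, at 6.36, 4.39 and 3.72 on the E1 arrays, against 3.45, 5.47 and 2.96 on the HCT116 arrays. These are among the low signals, and no order is read from them. Its log2 fold change of 0.03 (SE 0.11, 95% confidence interval -0.22 to 0.29, adjusted p = 0.929 in limma) was the 1 positive value among the 11.

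**Figure D3:**
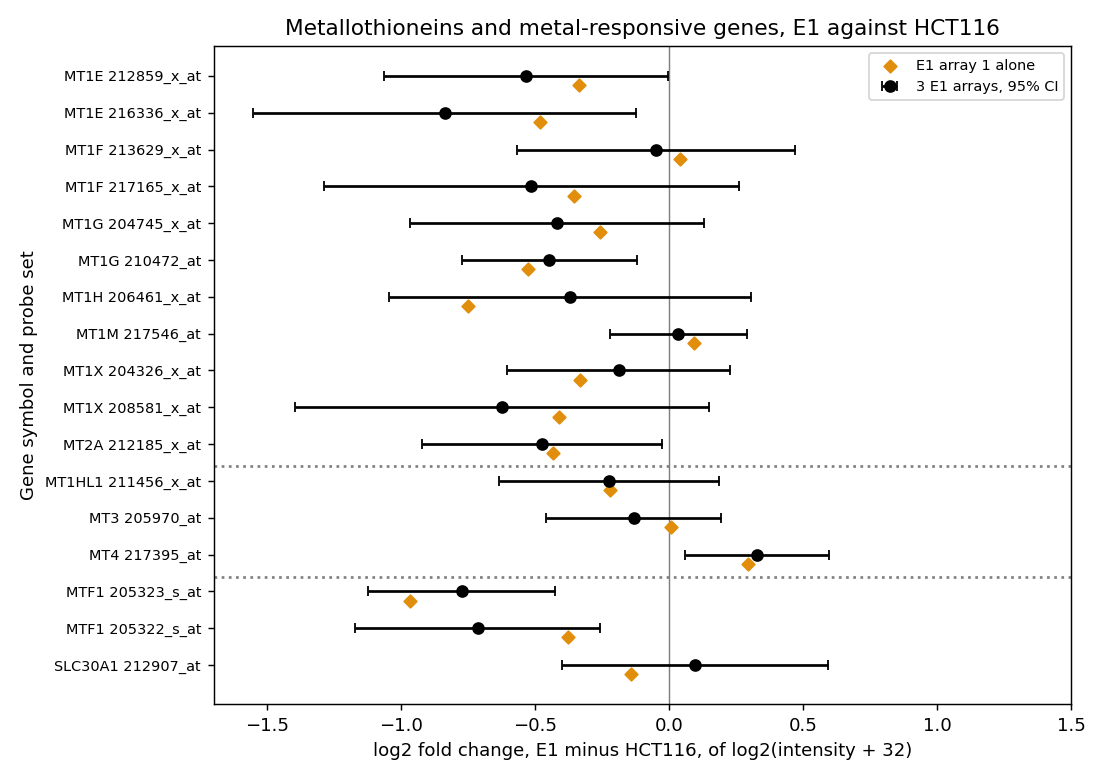
Log2 fold changes, E1 minus HCT116, of each metallothionein probe set, of 3 other family probe sets, and of MTF1 and SLC30A1, with 95% confidence intervals (circles) and the value with E1 array 1 alone (diamonds). MT2A, both MT1E probe sets and MT1G 210472_at have intervals below 0 before adjustment, MT1M sits at 0.03, and both MTF1 probe sets lie below 0.

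The 3 E1 arrays differed from one another in their metallothionein values. Set against its own HCT116 mean on the log2 scale, the median deviation of the 9 _x_at members was -0.35 on E1 array 1, -0.12 on E1 array 2 and -0.82 on E1 array 3, against -0.02, -0.17 and 0.16 on HCT116 arrays 1, 2 and 3. E1 array 3 gave the lowest of the 6 values for 7 of the 9 and E1 array 1 for the other 2. E1 array 3 lay below every HCT116 array for 9 of 9, E1 array 1 for 8 of 9 and E1 array 2 for 4 of 9. HCT116 array 3 was the highest array for 8 of 9. The GAPDH ratio was highest on E1 array 3, and the E1 array nearest to HCT116 by the median deviation was E1 array 2, with a ratio of 34.1. The part of RNA quality in this order of the arrays was not tested. Without E1 array 3 the members' median log2 fold change was -0.26, and with the GAPDH ratio as a covariate it was -0.29. With E1 array 1 alone it was -0.35, with 9 of 11 negative, where 57.3% of all probe sets were negative.

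**Figure D4:**
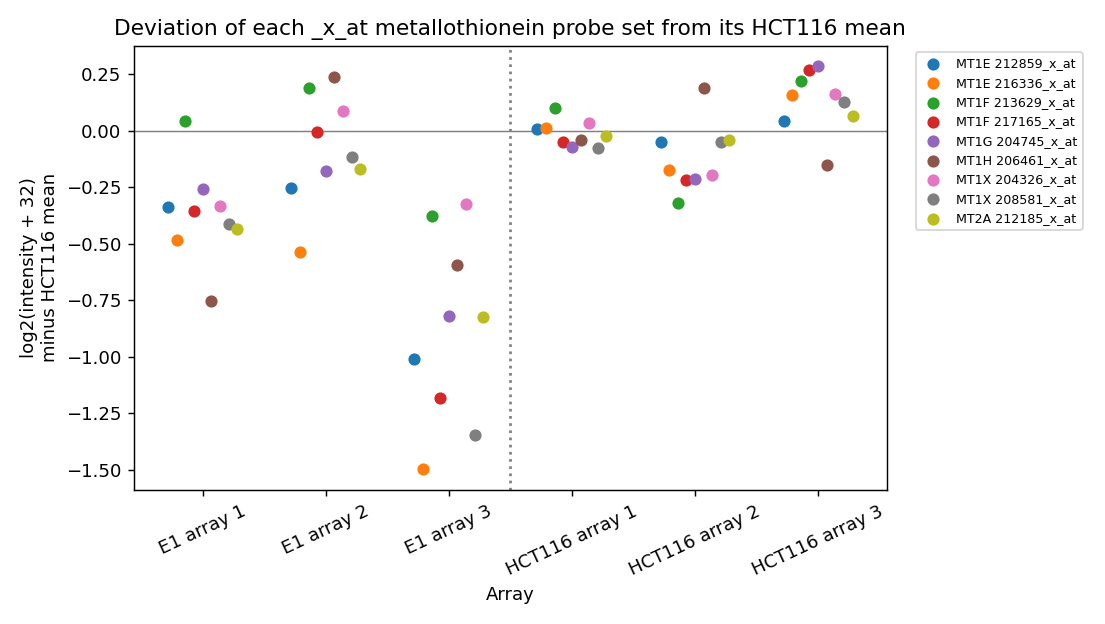
Deviation of each of the 9 _x_at metallothionein probe sets from its own HCT116 mean, in log2(intensity + 32), on each array, with E1 left of HCT116. E1 array 3 is lowest, with a median of -0.82, and E1 array 2 lies nearest to the HCT116 arrays among the E1 arrays, at -0.12.

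Whether probe sets of the same gene moved alike was examined as the difference of their log2 values within each array, for 4 genes with 2 probe sets each. For MT1E, 212859_x_at minus 216336_x_at was 1.02, 1.15 and 1.36 on the E1 arrays, against 0.87, 0.99 and 0.75 on the HCT116 arrays. These values did not overlap, and the shift of 0.30 had an exact two-sided permutation p of 0.1, the smallest that 3 against 3 arrays allow (0.2 after Benjamini-Hochberg adjustment over the 4 genes). For MT1F, 217165_x_at minus 213629_x_at was 1.19, 1.39 and 0.78 on the E1 arrays, against 1.43, 1.69 and 1.63 on the HCT116 arrays, a shift of -0.47 with an exact permutation p of 0.1 (0.2 adjusted). For MT1X the shift was -0.43 (exact permutation p = 0.2, adjusted 0.267) and for MT1G 0.03 (exact permutation p of 1). The design cannot bring such a test under 0.05. The MT1G shift also depended on the log offset, which understates the change of the dim 210472_at. In the main fit 204745_x_at and 210472_at of MT1G stood at -0.42 and -0.45. With an offset of 1 they stood at -0.43 and -1.11, so the small MT1G shift does not show that they moved alike. The shifts of MT1F and MT1X were close in size to the members' median log2 fold change of -0.45.

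Of the 3 other metallothionein probe sets on the array, MT1HL1, a copy on chromosome 1, read 3584, 4386 and 2914 with 211456_x_at on the E1 arrays, against 4289, 4165 and 4097 on the HCT116 arrays. Its log2 fold change was -0.22 (SE 0.17, adjusted p = 0.586 in limma). Like MT1H it had E1 array 2 as its highest array. MT3, known for its expression in brain, stood at -0.13 (SE 0.13, adjusted p = 0.712). MT4, known from stratified squamous epithelium, read 15.2, 13.8 and 20.1 on the E1 arrays, against 5.68, 6.73 and 7.03 on the HCT116 arrays, a low signal, for which the log2 difference was 0.33 (SE 0.11, adjusted p = 0.240).

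MTF1, which senses zinc and drives metallothionein transcription, was lower on every E1 array with both of its probe sets but did not pass. Its probe set 205323_s_at read 43.1, 52.4 and 67.6 on the E1 arrays, against 122, 117 and 106 on the HCT116 arrays, and 205322_s_at read 111, 62.5 and 75.5 on the E1 arrays, against 178, 141 and 146 on the HCT116 arrays. The log2 fold changes were -0.78 (SE 0.14, adjusted p = 0.0871 in limma) and -0.71 (SE 0.19, adjusted p = 0.169). With E1 array 1 alone they were -0.97 and -0.38. MTF1 was called, with both probe sets, when E1 array 1 was left out, and in no other alternative. In that fit 10.6% of all probe sets were called, against 0.77% in the main fit. The E1 arrays it keeps are those with GAPDH ratios of 34.1 and 71.9. SLC30A1, the zinc exporter whose transcription MTF1 is known to drive, read 198, 223 and 309 on the E1 arrays, against 276, 199.9 and 196 on the HCT116 arrays. These overlapped, and the log2 fold change was 0.10 (SE 0.20, 95% confidence interval -0.40 to 0.59, adjusted p = 0.887). Its sign was negative in 3 of 17 alternatives, some of which leave a log2 fold change unaltered by construction.

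Among 16 measured genes of zinc transport and sensing, MTF1 and SLC30A1 included, 0 were called in limma, while at an unadjusted p under 0.05 there were 1 above and 2 below HCT116. The median log2 fold change of their 24 probe sets was 0.05, and 4 of these had an unadjusted p under 0.05, against 16.5% of all probe sets. Next to MTF1 the smallest p belonged to SLC39A9, a zinc importer, at -0.90 (SE 0.35, adjusted p = 0.285) with 217859_s_at, which was -0.17 with E1 array 1 alone. Its other 2 probe sets stood at 0.15 (SE 0.17) and close to 0. Of 11 copper-handling genes 0 were called, and 1 was above HCT116 at an unadjusted p under 0.05, with a median of 0.11 over 15 probe sets. Of these 15 probe sets 1 passed that unadjusted threshold. ATOX1, the copper chaperone of the secretory pathway, read 439, 465 and 654 on the E1 arrays, against 254, 209.7 and 277 on the HCT116 arrays, without overlap. Its log2 fold change of 0.97 (SE 0.19) had an adjusted p of 0.0960 in limma. It ran opposite to most metallothioneins, was 0.76 with E1 array 1 alone, and was called after quantile normalization, at 1.11. The copper-exporting ATPase ATP7B stood at 0.33 (SE 0.16, adjusted p = 0.368).

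Of 9 iron and heme genes 0 were called in limma, while at an unadjusted p under 0.05 there were 1 above and 4 below HCT116. The iron importer SLC11A2 counts in both directions, through different probe sets. The iron storage chain FTL stood at -0.47 (SE 0.12, adjusted p = 0.166) with 212788_x_at and at -2.88 (SE 1.01, adjusted p = 0.250) with 213187_x_at, and the value of 213187_x_at was -0.68 with E1 array 1 alone. The heme oxygenase HMOX2 stood at -0.47 (SE 0.13, adjusted p = 0.173) with 218121_at and at -1.20 (SE 0.39, adjusted p = 0.233) with 218120_s_at. The value of 218120_s_at was -0.37 with E1 array 1 alone and -1.61 without it. The median over 19 probe sets was -0.18, and 7 of them had an unadjusted p under 0.05, against 16.5% of all probe sets.

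Of 9 genes of the heat and metal stress response 0 were called in limma, and 2 were below HCT116 at an unadjusted p under 0.05, HSF1 and DNAJB1, with a median of -0.26 over 17 probe sets. Of these probe sets 4 passed that unadjusted threshold, against 16.5% of all probe sets. HSF1, the heat shock factor, read 70.1, 35.6 and 40.2 with 213756_s_at on the E1 arrays, against 163, 174 and 128 on the HCT116 arrays, at -1.23 (SE 0.20, adjusted p = 0.0649), or -0.86 with E1 array 1 alone. The co-chaperone DNAJB1 read 424, 258 and 137 with 200664_s_at on the E1 arrays, against 1240, 823 and 1090 on the HCT116 arrays, at -1.93 (SE 0.37, adjusted p = 0.0958) and -1.23 with E1 array 1 alone. Neither of these 2 probe sets overlapped between the lines, and both were called when the dimmest 40% of probe sets were left out. The second HSF1 probe set, 202344_at, read 219, 4.74 and 3.38 on the E1 arrays, against 302, 206 and 235 on the HCT116 arrays. E1 array 1 lay within the HCT116 range and E1 arrays 2 and 3 far below it, and the value of -2.01 (SE 0.76, adjusted p = 0.275) was -0.14 with E1 array 1 alone. The second DNAJB1 probe set, 200666_s_at, stood at -0.77 (SE 0.28, adjusted p = 0.267), without overlap.

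Of 9 genes of the glucocorticoid receptor and its targets 0 were called in limma, and 2 were below HCT116 at an unadjusted p under 0.05, NR3C1 and FKBP5, with a median of -0.28 over 17 probe sets. Of these probe sets 3 passed that unadjusted threshold, against 16.5% of all probe sets. The receptor gene NR3C1 read 46.1, 54.7 and 54.7 with 201865_x_at on the E1 arrays, against 98.7, 131 and 108 on the HCT116 arrays, at -0.78 (SE 0.13, adjusted p = 0.0686) and -0.88 with E1 array 1 alone. Its other 3 probe sets stood at -0.48, -0.59 and -0.33. Its target FKBP5, a co-chaperone of the receptor, read 42.9, 1.45 and 1.34 on the E1 arrays, against 95.1, 78.4 and 78.1 on the HCT116 arrays. That is -1.40 (SE 0.33, adjusted p = 0.138), or -0.63 with E1 array 1 alone, and E1 arrays 2 and 3, those with high GAPDH ratios, were far below E1 array 1. Without E1 array 1, when 10.6% of all probe sets were called, 9 of the 54 measured genes of these 5 lists had at least 1 called probe set. That count is by genes, so it is not on the scale of the share of probe sets. The 9 were ATOX1, which was higher in E1, and MTF1, SLC39A9, FTL, HMOX2, HSF1, DNAJB1, NR3C1 and FKBP5, which were lower.

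**Figure D5:**
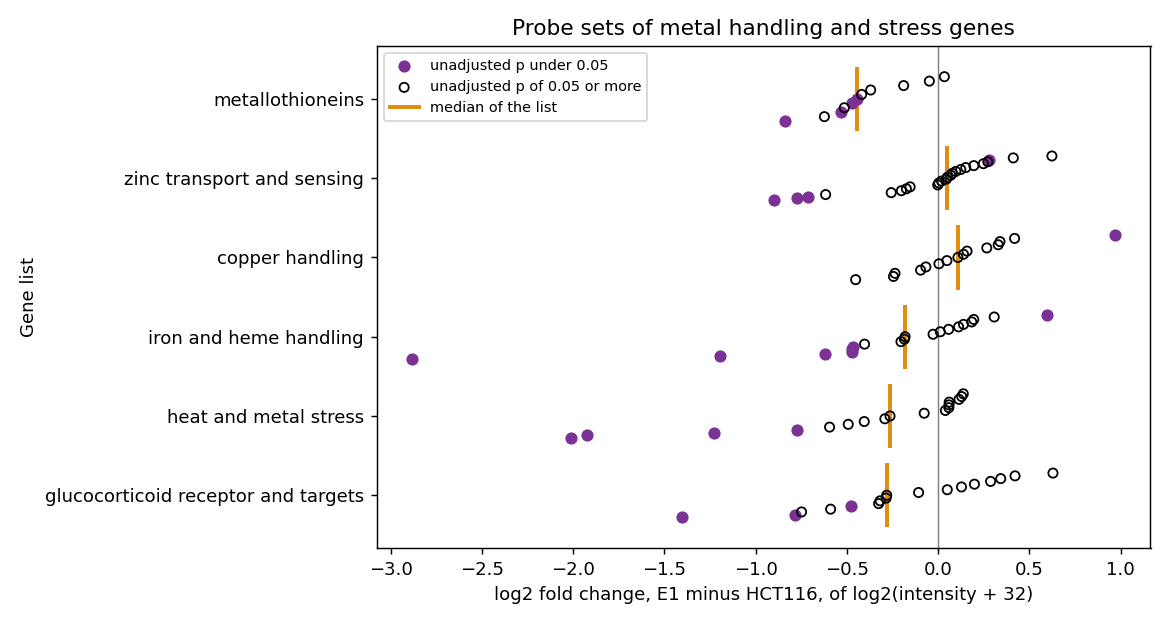
Log2 fold changes, E1 minus HCT116, of every probe set of the metallothioneins and of 5 gene lists of metal handling and stress, with filled points for an unadjusted p under 0.05 and a bar at the median of each list. The median is -0.45 for metallothioneins and lies between -0.28 and 0.11 for the other lists.

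The 10 nearest measured genes on each side of the cluster on chromosome 16 were read in 32 probe sets. The median log2 fold change of these 32 was -0.04, and 0 were called in limma. An unadjusted p under 0.05 was found for 2, both lower in E1, where 11.7% of all probe sets were lower at that threshold. The 2 were OGFOD1, a ribosomal protein hydroxylase next to MT4 among the measured genes, at -0.42 (SE 0.12, adjusted p = 0.181), and NUDT21, a subunit of the polyadenylation machinery, at -0.79 (SE 0.17, adjusted p = 0.113) with 213461_at. The other NUDT21 probe set stood at -0.28 (SE 0.15).

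Across the 6 arrays, the probe sets outside the family whose log2 values most resembled the mean of the 7 genes were 204031_s_at of PCBP2, an RNA-binding protein (Pearson's r = 0.990), 220181_x_at of SLC30A5, a zinc transporter of the secretory pathway (0.989), 217793_at of RAB11B, a GTPase of recycling endosomes (0.988), 214507_s_at of EXOSC2, a subunit of the RNA exosome (0.985), and 38691_s_at of SFTPC, annotated to a surfactant protein (0.984). They are the top 5 of 9920 candidate probe sets, 135 of which had r above 0.9. Each of these genes also has at least 1 other probe set on the array, and none of those is in this top 5. The likeness is thus of the probe set named and not of the gene. All points are the same 6 arrays, so the likeness is a description and carries no test. The second SLC30A5 probe set, 218989_x_at, went the other way, at 0.41 (SE 0.25), against -0.62 (SE 0.32) for 220181_x_at, which resembled the metallothioneins.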

How the data were processed

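Per the labels, biotin-labelled total RNA was hybridised to 3 E1 and 3 HCT116 arrays. The authors deposited a single linear intensity for each probe set on each array, and how it was summarized, background-corrected and scaled is not given in the sources used here. Intensities were used without further normalization, as log2(intensity + 32), leaving out 68 control probe sets. Probe sets were named from the platform annotation where it gives 1 symbol. The lines were compared over single probe sets by lmFit and untrended eBayes of limma (version 3.58.1, under R 4.3.3) and Benjamini-Hochberg adjustment over 22215 probe sets, two-sided, at 0.05. A list gene counts once per direction if any of its probe sets passes. The number of arrays limits the precision. The fit was tested on simulated data. Alternatives were 2 normalizations, offsets of 1 and 100, filters, other fits, a threshold of 0.01 and leaving out arrays. Members and lists were chosen with earlier results of these data known. All members are described. Beside them MTF1, SLC30A1, called list genes or otherwise the 2 with the smallest p, called neighbours or otherwise the 2 with the smallest p, and the 5 probe sets most like the members are named. SLC11A2 and the epithelial markers EPCAM, CEACAM5, KRT8, KRT19, CDX1, CDX2 and VIL1 were named after their values were seen.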

Additional observations from a re-analysis of the deposited data

Results flagged for a closer look

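The GAPDH control probe sets, which are not among the probe sets compared between the lines and serve only as a covariate in 1 alternative, gave 3' to 5' signal ratios of 34.1 on E1 array 2 and 71.9 on E1 array 3, above the 0.774 to 0.811 of the HCT116 arrays and the 0.803 of E1 array 1.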

How the results depend on the processing

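No metallothionein probe set was called in any alternative that tested it, and the members' median log2 fold change stayed between -0.63 and -0.21. At an unadjusted p under 0.05 in limma there were 0 to 6 members. The 6 came without E1 array 2, all lower in E1, where 8.20% of all probe sets were lower at that threshold. The 0 came without HCT116 array 3, where 8.09% were. Of 172 member values under the alternatives 165 kept their sign and 7 did not, all of MT1F 213629_x_at. It stood at 0.0433 after quantile normalization, 0.1014 with array medians subtracted, 0.0417 with E1 array 1 alone, 0.0907 with the GAPDH covariate and between -0.21 and 0.12 when arrays were left out in turn. The count of kept signs overstates stability. Fits that only drop probe sets, change the eBayes step or add the replicate block leave each log2 fold change as in the main fit. The median of all probe sets moved by 0.15 when array medians were subtracted, to 0.13, and the members' median there was -0.30. The 171 calls over all probe sets became 111 with an offset of 100, 310 without the dimmest 40%, 28 without _x_at and _s_at probe sets, 50 with 1 probe set per gene, 5 at a threshold of 0.01, 6 with the GAPDH covariate, 0 with E1 array 1 alone, where 2791 had an unadjusted p under 0.05 with all spread taken from the HCT116 arrays, and 5 to 2358 when arrays were left out in turn. Of the 171, 48 were higher and 123 lower, of 187 after quantile normalization 79 and 108, and of 206 with array medians subtracted 79 and 127. Metal-handling and stress genes called numbered 0 in the main analysis, 1 after quantile normalization (ATOX1), 2 without the dimmest 40% and 0 to 9 when arrays were left out, the 9 without E1 array 1. The cause of these changes was not tested. Same-numbered arrays did not deviate together (correlations of -0.04, -0.31 and -0.09 across probe sets), which gave no ground to pair them. It cannot exclude a pairing, because E1 arrays 2 and 3 had GAPDH ratios that no HCT116 array shared. The fit with the replicate number as a block called 0 probe sets, with 3126 at an unadjusted p under 0.05 in limma. Signal over background was not given, which limits what can be said of MT1M and MT1G 210472_at.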
